A study of Mus musculus with 4 samples.

Results

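Complex I, the NADH dehydrogenase of the respiratory chain, was followed through all 45 genes of the deposited expression table whose symbol starts with Nduf, out of 12165 genes listed. Of these, 7 encode assembly factors (symbols starting Ndufaf) and 38 carry a subunit name. The samples were brown adipose tissue of WT mice (2 libraries) and of Ebf2 KO mice (2 libraries), all aged 8 weeks, of a strain given as mixed, fed chow and held at room temperature. The labels state neither which part of Ebf2 was removed, nor the sex of the mice, nor whether a library came from a single animal. P-values therefore measure the spread between these libraries only, which may be technical. Polyadenylated RNA was sequenced, and levels are RPKM (reads scaled to the length of the gene and to the reads of the library).

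Complex I takes electrons from NADH, passes them to ubiquinone and pumps protons across the inner mitochondrial membrane. Its matrix arm holds an N module, where NADH is oxidised, and a Q module, where ubiquinone is reduced, while its membrane arm has a proximal part next to the Q module and a distal part. A small core of subunits carries the flavin, the iron-sulfur clusters and the proton channels, and the remaining accessory subunits surround it. The proton-pumping core of the membrane arm is encoded in mitochondrial DNA and is not analysed here. Brown fat is rich in mitochondria, and EBF2 is a transcription factor that takes part in setting brown fat identity.

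The RPKM values rested on 162782640 to 199678916 reads per library, and even the least covered Nduf gene rested on at least 923 reads in each library. Ebf2 was at 2.97 and 2.63 RPKM in WT and at 0.391 and 0.352 RPKM in Ebf2 KO (limma adjusted p = 0.00536), so the targeted gene was low in both libraries labelled Ebf2 KO. The median RPKM of all listed genes was 2.61 and 3.59 in WT and 4.46 and 5.28 in Ebf2 KO, so most genes had higher RPKM in Ebf2 KO. Calls are therefore given on RPKM and again after each library was centred on its own median. In all 9 brown fat markers both Ebf2 KO values lay below both WT values, as in 9.3% of all genes. Their summed RPKM went from 11674 and 12577 in WT to 968.4 and 391.8 in Ebf2 KO. Of 16 skeletal muscle markers 13 rose on RPKM, 10 after centring and 8 by quantile normalization. Of all genes, 24.4% rose on RPKM and 8.42% after centring, and 10.3% fell after centring. These shares apply to the marker counts that follow as well. By quantile normalization 1048 of all 12165 genes rose. The muscle sums were 1073, 2860, 10011 and 10996 RPKM in WT replicates 1 and 2 and Ebf2 KO replicates 1 and 2. Of 7 fibroblast and precursor markers 7 rose on RPKM and 6 after centring, from sums of 266.8 and 586.8 to 1416 and 2608 RPKM. Of 7 macrophage markers 5 rose on RPKM and 5 after centring, from 54.4 and 113.0 to 305.2 and 270.9 RPKM. On centred libraries without WT replicate 1, fewer muscle, fibroblast and precursor, and macrophage markers passed, and no share of all genes is given for that setting. Of 6 endothelial markers 0 passed by limma, 1 of them at an unadjusted p under 0.05 by limma and in the authors' deposited table, with sums of 72.3 and 119.2 RPKM in WT and 106.6 and 117.7 RPKM in Ebf2 KO. Of 7 general adipocyte markers 4 rose on RPKM and 1 after centring, where 1 fell, and their sums were 19901 and 14320 RPKM in WT and 39115 and 32785 RPKM in Ebf2 KO. No marker of these lists was at 0 in any library. The part of these other cells in the results below was not tested, and in bulk tissue fewer cells of a type and less RNA per cell cannot be told apart.

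RNA of the complex I subunits was lower without Ebf2. In 41 of 45 Nduf genes both Ebf2 KO values lay below both WT values, a pattern found in 9.3% of all listed genes. In 1 gene, Ndufa4l2, both lay above both WT values, as in 65.4% of all genes. Ebf2 KO held a median of 57.8% of the WT level over the 45 genes. By limma on log2(RPKM + 1), with p-values adjusted over all 12165 genes and a threshold of 0.05, 21 of 45 fell (3.54% of all genes did) and 0 rose (24.4% of all genes did). At an unadjusted p under 0.05, 0 members were higher by limma and in the authors' deposited table. The median log2 fold change of the 45 genes was -0.78, and that of all genes was 0.45. After centring, 20 of 45 fell (10.3% of all genes) and 0 rose (8.42% of all genes), with a median of -1.31 against -0.07 for all genes. The 2 sets of calls shared 18 genes. In the authors' deposited table, 40 of 45 were lower at an FDR under 0.05 (10.5% of all genes) and 0 were higher (10.9% of all genes). The 5 not lower there were Ndufa4l2, Ndufa7, Ndufaf2, Ndufaf3 and Ndufaf7. Below, whether a gene fell or passed refers to limma unless the deposited table is named.

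**Figure D1:**
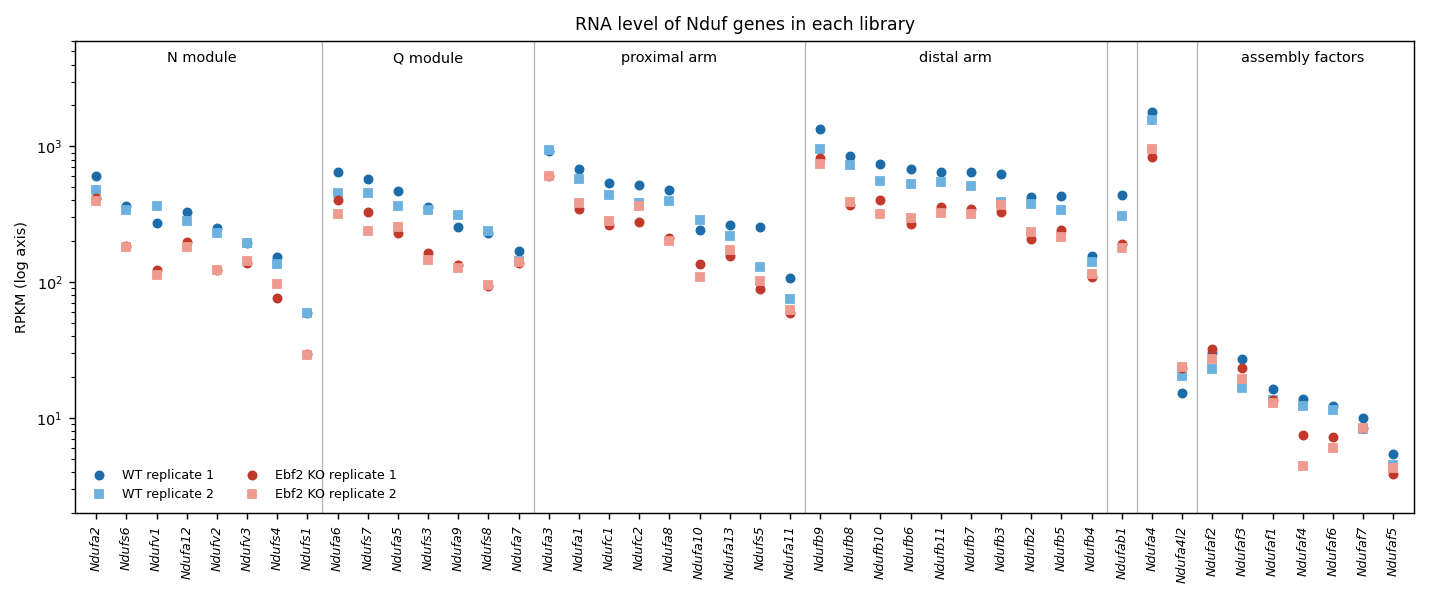
RPKM (log axis) of 44 Nduf genes in each of the 4 libraries, ordered within each group by the WT mean. The 2 narrow panels between the distal arm and the assembly factors hold Ndufab1, then Ndufa4 and Ndufa4l2. Red points (Ebf2 KO) lie below blue points (WT) in 40 of the 44 genes drawn.

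The calls rested on few libraries. With Ebf2 KO replicate 2 left out, 1 of 45 passed, Ndufs8 (1.36% of all genes were lower), and with Ebf2 KO replicate 1 left out 8 did (2.52%). Without WT replicate 2, 34 passed (4.45% of all genes). The log2 fold changes of all 36 structural subunits were below 0 in each of the 16 settings tried. Structural subunits are the Nduf genes without the assembly factors and without Ndufa4 and Ndufa4l2. All 36 had both Ebf2 KO values below both WT values, so leaving out 1 library on RPKM could not change a sign. The settings reuse the same libraries, so they cannot tell whether the direction would hold in others. A further 6 members, Ndufa4, Ndufb7, Ndufb10, Ndufs7, Ndufb5 and Ndufa12, missed the threshold on RPKM with an adjusted p between 0.0503 and 0.0547.

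The WT tissue expressed the structural subunits at high but unequal levels. Their median was 428.7 and 363.6 RPKM in the WT libraries and 202.8 and 190.5 RPKM in Ebf2 KO. The lowest was the core subunit Ndufs1, at 59.6 and 58.9 RPKM in WT, and the highest was the accessory subunit Ndufb9, at 1335 and 963.3 RPKM. Within a library the top subunit stood 22.4 and 16.3 times above the bottom one in WT, and 28.0 and 25.5 times in Ebf2 KO. The order of the 36 subunits was much alike in all libraries, with a Spearman correlation across genes of 0.946 between the WT libraries, 0.973 between the Ebf2 KO libraries and 0.890 to 0.951 between genotypes. This describes shared levels only, since genes are not independent replicates. The 2 WT libraries differed among themselves: 29 of 36 subunits were higher in WT replicate 1, and the exceptions included Ndufv1, Ndufs8, Ndufa9 and Ndufa10. In Ebf2 KO 18 of 36 were higher in replicate 1. Across the 36 subunits the log2 fold change had a Spearman correlation of 0.021 with the WT level and of -0.23 with gene length as recovered from the values.

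The promoters of the subunits that fell most and of contrasting assembly factors are shown to let the letters be read beside the values. The sequences are RefSeq windows of 300 bases on GRCm38.p6, 250 before the start and 50 from it on, which is another build than the mm9 of the deposited values. Of the 45 genes 39 had a window, and 6, among them Ndufa4l2, Ndufaf6 and Ndufb9, had none. Ndufv1 (chr19:4012706-4013005, minus strand), Ndufs8 (chr19:3912725-3913024, minus strand) and Ndufs3 (chr2:90904672-90904971, minus strand) were the 3 subunits with a window and the lowest share of the WT level. Ndufaf4 (chr4:24897833-24898132, plus strand) fell and Ndufaf2 (chr13:108158576-108158875, minus strand) did not. Capitals mark letters of the motifs searched below, other than the SP1 box.
Ndufv1: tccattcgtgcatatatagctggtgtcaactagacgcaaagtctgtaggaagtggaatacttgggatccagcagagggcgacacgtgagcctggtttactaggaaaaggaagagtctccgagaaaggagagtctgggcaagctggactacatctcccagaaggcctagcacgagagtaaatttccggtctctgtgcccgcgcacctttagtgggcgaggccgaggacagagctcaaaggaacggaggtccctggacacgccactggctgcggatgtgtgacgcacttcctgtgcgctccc
Ndufs8: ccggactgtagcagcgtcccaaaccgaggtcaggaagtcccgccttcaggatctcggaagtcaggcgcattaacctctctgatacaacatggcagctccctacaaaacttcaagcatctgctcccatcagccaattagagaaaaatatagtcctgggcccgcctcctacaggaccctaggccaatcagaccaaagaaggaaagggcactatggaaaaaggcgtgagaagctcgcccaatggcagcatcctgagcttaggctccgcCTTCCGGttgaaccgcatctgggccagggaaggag
Ndufs3: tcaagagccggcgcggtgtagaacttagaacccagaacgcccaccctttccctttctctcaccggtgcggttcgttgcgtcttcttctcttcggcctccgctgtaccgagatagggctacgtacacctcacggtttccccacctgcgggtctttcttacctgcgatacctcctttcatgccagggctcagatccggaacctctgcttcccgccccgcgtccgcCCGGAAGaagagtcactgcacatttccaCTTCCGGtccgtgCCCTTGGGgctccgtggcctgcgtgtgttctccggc
Ndufaf4: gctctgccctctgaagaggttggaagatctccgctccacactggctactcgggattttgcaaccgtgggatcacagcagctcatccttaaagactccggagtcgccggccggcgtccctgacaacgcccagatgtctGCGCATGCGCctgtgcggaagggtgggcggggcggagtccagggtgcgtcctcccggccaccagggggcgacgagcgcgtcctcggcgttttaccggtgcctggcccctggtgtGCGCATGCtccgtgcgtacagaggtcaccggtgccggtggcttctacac
Ndufaf2: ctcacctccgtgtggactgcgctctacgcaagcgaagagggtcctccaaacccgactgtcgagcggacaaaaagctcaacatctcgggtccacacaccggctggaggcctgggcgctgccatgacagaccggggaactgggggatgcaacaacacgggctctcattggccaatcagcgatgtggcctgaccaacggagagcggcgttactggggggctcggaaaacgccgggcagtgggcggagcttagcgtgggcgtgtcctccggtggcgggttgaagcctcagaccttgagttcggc

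Both strands were searched for short letter patterns of factors known for roles in mitochondrial or brown fat genes. Shares are set beside those of all 27025 genes with a window and of the 8951 of them that are in the expression table, which are the closer comparison since the Nduf genes are all in that table. The EBF pattern CCCNNGGG stood in 5 of 39 Nduf genes (12.8%), in 15.4% of all genes and in 21.5% of genes in the table. The GABP pattern CCGGAAG stood in 5 of 39 (12.8%), in 9.93% of all genes and in 20.1% of those in the table. The SP1 pattern GGGCGG stood in 20 of 39 (51.3%), in 38.2% and in 69.4%. For GABP and SP1 the Nduf share thus lay above that of all genes and below that of genes in the table. The NRF1 pattern GCATGCGC stood in 5 of 39 (12.8%), in 3.05% of all genes and in 5.99% of those in the table. The YY1 pattern AAGATGG stood in 7 of 39 (17.9%), in 7.28% and in 8.55%. The pattern AAGGTCA of estrogen-related receptors stood in 3 of 39 (7.69%), in 5.38% and in 3.92%. These 3 shares lay above both backgrounds, on few genes and with no test. Among the windows printed, Ndufs8 holds a GABP pattern from base 16 after the start. Ndufs3 holds GABP patterns from bases -27 and 2 and an EBF pattern from base 15. Ndufaf4 holds NRF1 patterns that overlap on opposite strands from bases -113 and -111, and another from base 2. Ndufv1 and Ndufaf2 hold none of these 5 patterns in the window. A match is a description of letters and not evidence of binding.

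Of the 8 N module genes 5 fell on RPKM and 5 after centring, and all 8 had both Ebf2 KO values below both WT values. Ndufv1, which carries the flavin that accepts electrons from NADH, was at 271.4 and 362.3 RPKM in WT and at 122.6 and 113.1 RPKM in Ebf2 KO. Its mean went from 316.8 ± 64.3 to 117.8 ± 6.73 RPKM (SD, n = 2 each), the lowest share of WT among the 45 genes at 37.2%. Its log2 fold change, on log2(RPKM + 1), was -1.41 with an SE of 0.233 (limma adjusted p = 0.00816). Ndufs1, the largest iron-sulfur subunit, was at 59.6 and 58.9 RPKM in WT and at 29.3 and 29.2 RPKM in Ebf2 KO, so replicates lay close together and the groups far apart (limma adjusted p = 0.0120). Ndufv2, an iron-sulfur subunit beside Ndufv1, was at 251.6 and 229.8 RPKM in WT and at 123.0 and 123.6 RPKM in Ebf2 KO (limma adjusted p = 0.0173). Ndufs6, a zinc-binding accessory subunit, was at 364.7 and 342.4 RPKM in WT and at 183.7 and 180.9 RPKM in Ebf2 KO (limma adjusted p = 0.0198). In both, the Ebf2 KO replicates were nearly equal and far from WT. Ndufs4, an accessory subunit whose loss in mice gives a Leigh-like disease, also fell, to 60.2% of WT (limma adjusted p = 0.0416). The most abundant N module gene, Ndufa2, stood at 601.8 and 475.1 RPKM in WT and at 414.4 and 395.0 RPKM in Ebf2 KO. Its groups did not overlap, but the difference did not pass (limma adjusted p = 0.234). Ndufv3 kept 72.6% and Ndufa12 62.3% of the WT mean without passing.

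Of the 8 Q module genes 5 fell on RPKM and 4 after centring. Ndufs8, which holds iron-sulfur clusters on the path to ubiquinone, was at 230.9 and 238.7 RPKM in WT and at 94.1 and 94.5 RPKM in Ebf2 KO. Its log2 fold change was -1.31 (limma adjusted p = 0.00665), and it had the smallest adjusted p of the 45 genes on RPKM. Ndufs3, another core subunit, was at 355.2 and 341.6 RPKM in WT and at 163.0 and 145.2 RPKM in Ebf2 KO (limma adjusted p = 0.0109). In both of these core subunits the Ebf2 KO values lay far below both WT values. Ndufa9, an accessory subunit near the junction with the membrane arm, was at 252.5 and 312.6 RPKM in WT and at 133.0 and 126.2 RPKM in Ebf2 KO (limma adjusted p = 0.0140). Ndufa5, at 471.1 and 364.8 RPKM in WT and at 231.1 and 254.2 RPKM in Ebf2 KO, fell on RPKM (limma adjusted p = 0.0491) but not after centring (0.0526). The core subunit Ndufs7, which carries the last iron-sulfur cluster before ubiquinone, was at 577.2 and 451.6 RPKM in WT and at 330.7 and 237.3 RPKM in Ebf2 KO, and did not pass (limma adjusted p = 0.0503). Its libraries spread widely within each genotype without overlapping between them. Ndufa6, which ranked first in the module by WT level, stood at 648.7 and 453.3 RPKM in WT and at 405.4 and 318.2 RPKM in Ebf2 KO. Ndufa7, the least abundant in WT, was at 170.1 and 143.9 RPKM in WT and at 138.2 and 141.7 RPKM in Ebf2 KO. At 89.2% of WT it lay nearest to the WT level of all structural subunits (limma adjusted p = 0.559), and its FDR in the authors' deposited table was 0.0822.

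Of the 9 genes of the proximal membrane arm 4 fell on RPKM and 4 after centring. Ndufa10, an accessory subunit on the matrix side, was at 242.8 and 288.9 RPKM in WT and at 135.5 and 108.8 RPKM in Ebf2 KO (limma adjusted p = 0.0151). Ndufa8, a subunit of the intermembrane side, was at 475.1 and 393.0 RPKM in WT and at 212.3 and 199.6 RPKM in Ebf2 KO (limma adjusted p = 0.0175). Ndufc1, a small membrane subunit, was at 534.9 and 441.0 RPKM in WT and at 262.0 and 279.9 RPKM in Ebf2 KO (limma adjusted p = 0.0368). These 3 genes kept their calls after centring. The X-linked Ndufa1, at 683.6 and 570.5 RPKM in WT and at 345.2 and 380.3 RPKM in Ebf2 KO, lay just inside the threshold on RPKM (limma adjusted p = 0.04998) and outside it after centring (0.0602). Ndufs5 did the reverse. Its WT values of 256.0 and 129.5 RPKM lay far apart, both above the 88.2 and 102.7 RPKM of Ebf2 KO, and its limma adjusted p was 0.0647 on RPKM and 0.0427 after centring. Ndufa3, the most abundant gene of the group, was at 921.4 and 942.5 RPKM in WT and at 608.7 and 609.1 RPKM in Ebf2 KO (limma adjusted p = 0.102). Ndufa11, the least abundant, was at 107.3 and 75.5 RPKM in WT and at 59.2 and 62.1 RPKM in Ebf2 KO. Ndufc2 and Ndufa13 kept 71.1% and 68.2% of WT and did not pass.

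Of the 10 genes of the distal membrane arm 4 fell on RPKM and 3 after centring. Ndufb6 was at 685.0 and 532.2 RPKM in WT and at 266.7 and 294.7 RPKM in Ebf2 KO (limma adjusted p = 0.0201). Ndufb8, whose protein is widely used as a marker of assembled complex I, was at 847.4 and 727.6 RPKM in WT and at 369.8 and 387.8 RPKM in Ebf2 KO (limma adjusted p = 0.0228). Both had every Ebf2 KO value far below the WT values. Ndufb2 was at 423.3 and 378.9 RPKM in WT and at 207.9 and 233.7 RPKM in Ebf2 KO (limma adjusted p = 0.0307). The X-linked Ndufb11, at 643.5 and 547.3 RPKM in WT and at 355.0 and 321.1 RPKM in Ebf2 KO, fell on RPKM (limma adjusted p = 0.0434) and missed the threshold after centring (0.0561). Ndufb9, the most abundant structural subunit of all, was at 1335 and 963.3 RPKM in WT and at 822.2 and 744.8 RPKM in Ebf2 KO. The spread between its WT libraries was wide and the difference did not pass (limma adjusted p = 0.189). Ndufb4, the least abundant gene of the arm, was at 154.7 and 140.4 RPKM in WT and at 109.1 and 115.7 RPKM in Ebf2 KO, or 76.1% of WT. The remaining 4 genes of the arm lay between 55.6% (Ndufb10) and 69.3% (Ndufb3) of WT and did not pass. Ndufab1, the mitochondrial acyl carrier protein that is also a subunit of complex I, was at 438.8 and 308.5 RPKM in WT and at 189.4 and 179.1 RPKM in Ebf2 KO (limma adjusted p = 0.0274), and kept its call after centring (0.0298).

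**Figure D2:**
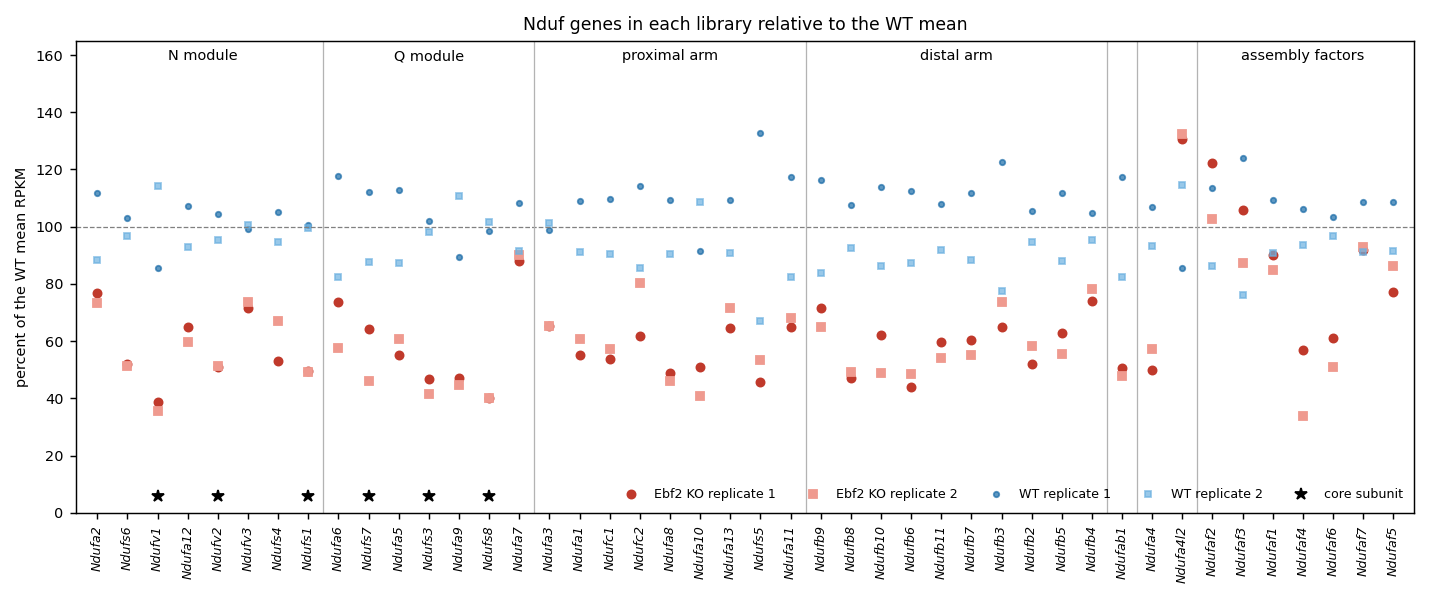
RPKM of 44 Nduf genes in each library as a percentage of its WT mean, with Ebf2 KO in red, WT in blue and stars under 6 core subunits. The Ebf2 KO means of the core subunits drawn lie between 37.2% and 55.2% of WT, and those of the accessory subunits reach 89.2%.

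The core and accessory subunits were then set side by side. Of the 7 core subunits encoded in the nucleus 6 fell on RPKM and 6 after centring, and of the 29 accessory subunits 13 and 11 did. Core subunits kept between 37.2% and 55.2% of the WT level, with a median of 44.2%. Accessory subunits kept between 45.9% and 89.2%, with a median of 58.1%, and 9 of 29 lay below the highest core value. The core subunits made up 12.8% and 15.6% of the summed subunit RPKM in WT and 11.8% and 10.6% in Ebf2 KO. This share does not change when a library is scaled by a single factor, but quantile normalization can change it. The Ebf2 KO shares lay below both WT shares, with a gap smaller than the distance between the WT libraries. No test of the difference between core and accessory subunits was made.

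The symbols Ndufa4 and Ndufa4l2 are historical: the Ndufa4 protein is now counted as a subunit of cytochrome oxidase, and Ndufa4l2 is its hypoxia-inducible paralog. Ndufa4 was the most abundant Nduf gene, at 1780 and 1552 RPKM in WT and at 831.2 and 955.2 RPKM in Ebf2 KO, and its difference did not pass the test by limma, whose adjusted p was 0.0547. In the authors' deposited table its log2 fold change was -1.56 at an FDR of 0.000214. Ndufa4l2 was at 15.3 and 20.5 RPKM in WT and at 23.3 and 23.7 RPKM in Ebf2 KO (limma adjusted p = 0.194). Its log2 fold change of 0.39 on RPKM became -0.13 after centring, so its direction hangs on the scaling. The ratio of Ndufa4 to Ndufa4l2 was 116.2 and 75.8 in WT and 35.6 and 40.3 in Ebf2 KO. Scaling a library by a single factor leaves this ratio as it is.

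The assembly factors help build complex I without staying in it. The 7 Ndufaf genes were expressed far below the subunits, with medians of 13.8 and 12.2 RPKM in WT and 8.40 and 8.48 RPKM in Ebf2 KO. Of these 2 fell on RPKM, Ndufaf4 and Ndufaf6, and 3 after centring, with Ndufaf5 added. Ndufaf4 was at 13.8 and 12.2 RPKM in WT and at 7.42 and 4.40 RPKM in Ebf2 KO, with a log2 fold change of -1.05 and an SE of 0.273 (limma adjusted p = 0.0296). Ndufaf6 was at 12.2 and 11.4 RPKM in WT and at 7.18 and 5.99 RPKM in Ebf2 KO (limma adjusted p = 0.0415). Without Ebf2 KO replicate 2 both calls on RPKM were lost (limma, with an adjusted p of 0.265 for Ndufaf6), and that of Ndufaf6 also without WT replicate 1 (0.0875) or Ebf2 KO replicate 1 (0.0864). Ndufaf5, known in human cells as a hydroxylase of NDUFS7, was at 5.39 and 4.53 RPKM in WT and at 3.83 and 4.28 RPKM in Ebf2 KO (limma adjusted p = 0.461 on RPKM and 0.0445 after centring).

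The other 4 Ndufaf genes showed no call in either fit. Ndufaf1, which acts on the membrane arm, was at 16.4 and 13.6 RPKM in WT and at 13.6 and 12.8 RPKM in Ebf2 KO, groups that almost touched. Ndufaf7, known in human cells as a protein methyltransferase, was at 9.94 and 8.34 RPKM in WT and at 8.40 and 8.48 RPKM in Ebf2 KO, and Ndufaf3, a partner of Ndufaf4, at 27.3, 16.7, 23.3 and 19.2 RPKM in the same order. The groups of both overlapped. Ndufaf2, a paralog of the subunit Ndufa12 that acts late in assembly, was at 29.9 and 22.7 RPKM in WT and at 32.2 and 27.1 RPKM in Ebf2 KO, and its log2 fold change of 0.17 turned to -0.35 after centring. The median subunit stood 31.0 and 29.8 times above the median Ndufaf gene in WT and 24.1 and 22.5 times in Ebf2 KO. Scaling a library by a single factor does not change this ratio.

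Of 14 further assembly factors without an Nduf name 11 were listed, and 3 fell and 0 rose on RPKM (5 and 0 after centring). The authors' deposited table had 7 lower and 0 higher. With the replicate number as a block 4 were lower and 1 higher, and no share of all genes that rose is given for that fit. Without WT replicate 1 the log2 fold changes of the 11 ran from -0.96 to 0.73. At an unadjusted p under 0.05, 4 of the 11 differed on RPKM, with no share of all genes given at that p. Past the adjusted threshold, 3.54% of all genes fell and 24.4% rose on RPKM. Foxred1, an oxidoreductase-like factor, was at 24.0 and 25.2 RPKM in WT and at 13.1 and 11.9 RPKM in Ebf2 KO (limma adjusted p = 0.0175). Aifm1, the apoptosis-inducing factor that aids import of respiratory chain proteins, was at 28.2 and 26.5 RPKM in WT and at 14.3 and 16.2 RPKM in Ebf2 KO (limma adjusted p = 0.0263). Ecsit was at 43.0 and 41.7 RPKM in WT and at 28.5 and 18.7 RPKM in Ebf2 KO (limma adjusted p = 0.0388). In all 3 the groups did not overlap. Over the 11 genes, both Ebf2 KO values lay below both WT values in 6, as in 9.3% of all genes. They lay above both WT values in 3 (Tmem126b, Sfxn4 and Lyrm2), as in 65.4% of all genes. Lyrm2, a member of the LYR motif family, was at 12.5 and 10.6 RPKM in WT and at 16.1 and 20.6 RPKM in Ebf2 KO (limma adjusted p = 0.0732), a difference that shrank to a log2 fold change of 0.09 after centring. Without Ebf2 KO replicate 2, 0 of the 11 passed by limma, and 2 were at an unadjusted p under 0.05.

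**Figure D3:**
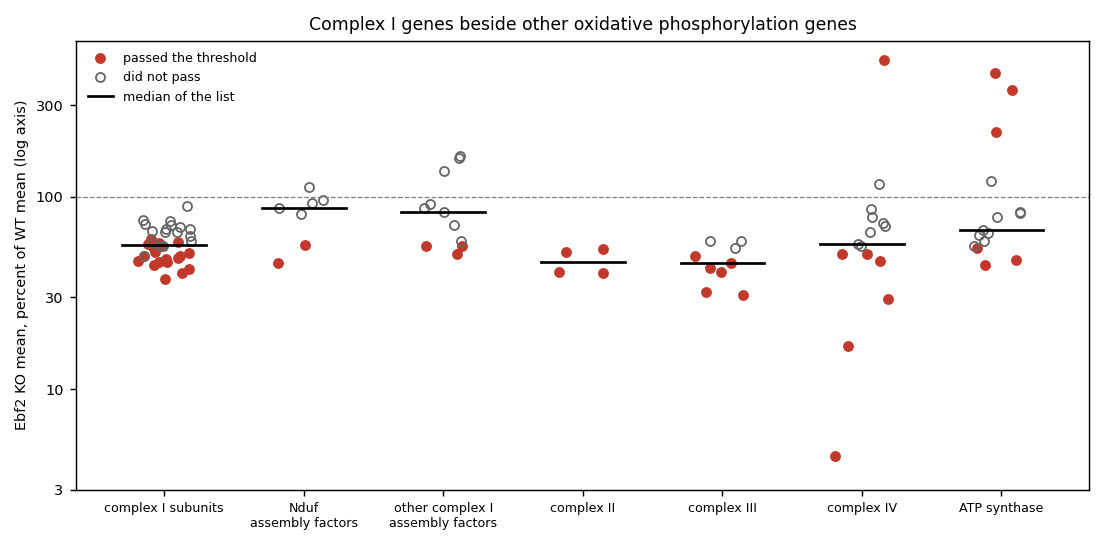
Mean RPKM in Ebf2 KO as a percentage of the WT mean (log axis) for each gene of complex I, its assembly factors and the other complexes, with filled points for genes past the threshold on RPKM and bars for list medians. Complex I subunits cluster around 56.2% of WT with none above 100%, as in complexes II and III, whereas complex IV and ATP synthase each hold genes above it.

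Beside the other complexes, the structural subunits of complex I were neither the most nor the least reduced. Their median share of the WT level was 56.2%, against 46.0% for 4 genes of complex II, 45.4% for 9 of complex III, 56.7% for 15 of complex IV and 66.9% for 15 of ATP synthase. On RPKM 19 of 36 complex I subunits fell, and 4 of 4, 6 of 9, 6 of 15 and 3 of 15 genes did in the same order. No gene of complex I, II or III rose, whereas 1 gene of complex IV and 3 of ATP synthase did on RPKM, and 1 of each after centring. Of all genes, 3.54% fell and 24.4% rose on RPKM, and 8.42% rose after centring. The counts per complex rested on few libraries too. The shares of all genes that were lower with 1 library left out stand above with the Nduf counts. By quantile normalization 1010 of all 12165 genes were lower, and no share is given at an unadjusted p under 0.05. Without Ebf2 KO replicate 2, the numbers lower by limma were 1 for complex I and 0, 1, 1 and 0 for the others in the same order, with 16, 4, 4, 5 and 3 genes at an unadjusted p under 0.05 in either direction. Leaving out Ebf2 KO replicate 1 gave 7, 2, 4, 3 and 0, leaving out WT replicate 2 gave 31, 4, 9, 9 and 8, and quantile normalization gave 31, 4, 9, 11 and 8. The complex I subunits spanned 37.2% to 89.2% of WT. Complex IV spanned 4.51% (Cox7a1, a subunit form of brown fat and muscle) to 511.8% (Cox6a2, a form of heart and skeletal muscle). ATP synthase reached 442.2% (Atp5g1, which encodes the ring-forming c subunit). The differences between complexes were not tested.

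**Figure D4:**
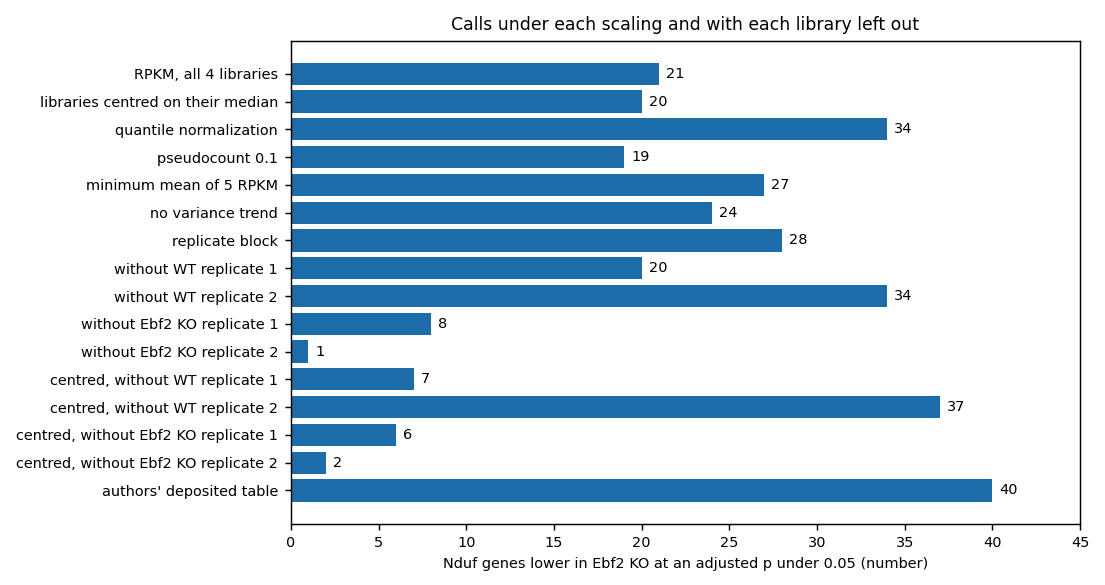
Number of the 45 Nduf genes that were lower without Ebf2 and passed the 0.05 threshold, for each way of scaling, each filter and each library left out. The bars run from 1 without Ebf2 KO replicate 2 to 40 in the authors' deposited table.

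The 45 genes lie on 16 chromosomes in GENCODE M21 (GRCm38), where all 45 symbols were found. For 19 of them exon bases are shared there with another gene, and for 11 with another gene of the table, such as Kbtbd4 for Ndufs3, Eef1b2 for Ndufs1, Tfpt for Ndufa3, Shmt2 for Ndufa4l2 and Impdh2 for Ndufaf3, all on the opposite strand. Nothing in the labels says whether counting used the strand, so part of the reads of these genes can come from the partner. Ndufb2, Ndufb8 and Ndufb9 share exon bases with a gene on the same strand (Gm42420, Gm20538 and Gm49356). Counting by strand could not separate reads on those bases. The annotation also holds 4 pseudogenes or duplicate copies under an Nduf name, of Ndufa11, Ndufab1, Ndufb4 and Ndufs6. Reads shared with these copies could make the values of these members less certain, which was not measured. Copies under other names were not searched for.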

How the data were processed

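Polyadenylated RNA of 4 brown fat libraries, 2 WT and 2 Ebf2 KO, was grouped by the labels. The authors aligned reads with STAR and used edgeR on mm9, per the submitters' processing notes; versions, counter and annotation: not given in the sources used here. Per the file headers, the deposited table holds RPKM per library, the authors' mean RPKM per genotype, and the authors' own log2 fold change, mean log2 CPM, FDR and p-value. RPKM of 158 microRNA genes of known RefSeq hairpin length gave the library totals. With these, 12164 of 12165 genes came out as whole reads within 1e-06 reads. Read numbers are the fewest that fit, and counting error is the only error they cover.

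All 12165 genes entered limma 3.58.1 (R 4.3.3), on log2(RPKM + 1) with a variance trend and genotype as the term. The Benjamini-Hochberg adjustment ran over all of them, at 0.05. The pseudocount makes the change of low genes look smaller on this scale. Residual degrees of freedom were 2 and those of the limma prior 5.605. The fit was tested on simulated data with independent libraries and without the general rise in RPKM seen in Ebf2 KO. That test therefore does not cover these features of the real values. The members, role groups and lists were chosen with earlier results of these data known. Values per library are given for up to 4 genes per role group with the smallest p, the most and least abundant gene of each group, every Ndufaf gene, Ndufab1, Ndufa4, Ndufa4l2 and genes whose call changed on centring. Others, named for context, were chosen after their values were seen, as were the promoter windows printed and the motifs searched. Alternatives were centring, quantile normalization, a pseudocount of 0.1, a minimum mean of 5 RPKM, no variance trend, the replicate number as a block, each library left out (on RPKM and centred) and the authors' deposited values. An exact permutation test of 2 against 2 libraries cannot go below p = 0.333. Values of 1 gene are not reported here, though the counts and medians include it.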

Additional observations from a re-analysis of the deposited data

How the results depend on the processing

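Of the 45 Nduf genes, the 21 lower on RPKM became 40 in the authors' deposited table and 34 by quantile normalization. Of all 12165 genes, 431 were lower on RPKM, 1277 in the authors' deposited table and 1010 by quantile normalization. Leaving out 1 library gave between 1 (without Ebf2 KO replicate 2) and 34 (without WT replicate 2). On centred libraries it gave 7 without WT replicate 1, 37 without WT replicate 2, 6 without Ebf2 KO replicate 1 and 2 without Ebf2 KO replicate 2. Of the 7 Ndufaf genes, the 2 lower on RPKM became 4 in the authors' deposited table and between 0 and 2 with 1 library left out. On centred libraries they were 0 without WT replicate 1, 5 without WT replicate 2 and 2 without either Ebf2 KO library. Where limma called 0 of them, 1 (RPKM) and 2 (centred) were at an unadjusted p under 0.05. No Nduf gene was higher past the threshold in the 16 settings tried. The other settings stayed within 1.5 times: 20 centred, 19 with a pseudocount of 0.1, 27 with a minimum mean of 5 RPKM (44 genes tested), 24 without a variance trend. Of all genes, 416 were lower with a pseudocount of 0.1 and 413 without a variance trend. With the minimum mean, 334 of 5476 were lower. For centred libraries with 1 left out no count of all genes is given, so those Nduf counts lack a background. The replicate block gave 28, with 746 of all genes lower. The labels do not say that a number marks a shared litter or day, and deviations of same-numbered libraries correlated at 0.353 over 10365 genes.

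Some log2 fold changes changed sign, none past the threshold after the change. Ndufaf2, at 0.17 on RPKM, was at -0.35 centred, -0.49 in the authors' deposited table and -0.31 by quantile normalization. It lay between -0.019 and 0.36 with 1 library left out, and on centred libraries at -0.72 without WT replicate 2, -0.57 without Ebf2 KO replicate 1 and -0.13 without Ebf2 KO replicate 2. Ndufa4l2, at 0.39, was at -0.13, -0.23 and -0.12 in the same order, and on centred libraries at -0.16, -0.11, -0.23 and -0.044 without WT replicates 1 and 2 and Ebf2 KO replicates 1 and 2. With 1 library left out, Ndufaf3 lay between -0.35 and 0.32 and Ndufaf7 between -0.21 and 0.016. The cause was not tested. Each Nduf gene rested on at least 923 reads per library and each genotype on 2 libraries.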
